A study of Mus musculus with 3 samples.

Results

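Microglia-like cells were examined in single-cell RNA profiles of 3 mouse brain tumours. They were chosen by measured values: at least 500 genes and at most 20% mitochondrial unique molecular identifiers (UMIs), a myeloid score of at least 15, and at least 3 raw UMIs of P2ry12, Tmem119, Gpr34 and Siglech together. The score is the sum of C1qa, C1qb, C1qc, Tyrobp, Fcer1g and Ctss per 10000 UMIs of the cell. These 10 genes chose the cells, so their levels are given below as a description with no test. The rule found 446 cells among 9286 kept cells and 9642 deposited barcodes: 69, 332 and 45 in the tumours numbered 1, 2 and 4. The cells set beside them are the other 345 cells of score 15 or more, here called other myeloid cells (92, 210 and 43), and the 8495 cells below that score.

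Microglia are the resident macrophages of the brain. They arise from yolk sac precursors, depend on signalling through the receptor Csf1r and on TGF-beta, and keep a set of surface receptors, among them the ADP receptor P2ry12 and the fractalkine receptor Cx3cr1, with which they survey the tissue. In injury, neurodegeneration and glioma they lower part of this homeostatic set and raise lysosomal, lipid and antigen presentation genes, while macrophages that enter from the blood carry overlapping programmes.

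The 3 tumours form 1 group, so there is no untreated or other-genotype control. All 3 mice had the genotype H3f3aK27M PdgfraD842V Trp53R270H and were heterozygous for the reporter allele Gt(ROSA)26Sortm4(ACTB-tdTomato,-EGFP)Luo on a B6.129(Cg) background, and their brains were electroporated with the MADR constructs at postnatal day 1 to 2. Tumours grew for 3 to 5 months and were taken at postnatal day 150 (tumour 1), 106 (tumour 2) and 149 (tumour 4). The tumour tissue was dissociated and sorted for GFP before loading on the 10x 3′ kit of version 2, so every myeloid cell here had passed a GFP gate and its share is not its share of the tissue. Each tumour is 1 animal, 1 age and 1 library, which cannot be told apart, and differences between tumours have no test.

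The microglia label was checked with 12 microglia markers that the rule did not use and with 12 markers of macrophages and monocytes. A 3′ UMI does not scale with transcript length, but genes differ in level and 1 abundant gene can set a sum. Equal sums are therefore no fixed boundary between cell types. In tumour 2 the microglia markers summed to 4956 CPM (the usual scaling of UMIs to one library total for every sum) in the chosen cells against 1255 CPM for macrophage markers, and in tumour 4 to 4227 against 1481 CPM. In tumour 1 the order was the other way, with 2021 CPM of microglia markers and 2811 CPM of macrophage markers, of which Lyz2, the lysozyme of macrophages and monocytes, gave 2295 CPM. Cell by cell, 320 of 332 chosen cells in tumour 2 and 43 of 45 in tumour 4 had more microglia than macrophage marker UMIs, but only 19 of 69 in tumour 1. Most other myeloid cells of tumours 2 and 4 did so too, 133 of 210 (2226 against 1609 CPM) and 31 of 43 (1966 against 1193 CPM), so the check does not set the chosen cells apart from them. By these sums the data of tumour 1 go against the label for most of its cells, but that order rests on Lyz2. With its 2295 CPM left out of the 2811 CPM, the remaining macrophage markers of tumour 1 stood below the 2021 CPM of microglia markers. The same held for the sums of its other myeloid cells. With all UMIs counted, Lyz2 was read in 98.6%, 95.8% and 93.3% of the chosen cells of tumours 1, 2 and 4. It was also read in 37.25%, 29.5% and 2.47% of cells below the score. The cell-by-cell check was not repeated without Lyz2. The name microglia-like is used below for the rule, and results are also given for tumours 2 and 4 alone.

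**Figure D1:**
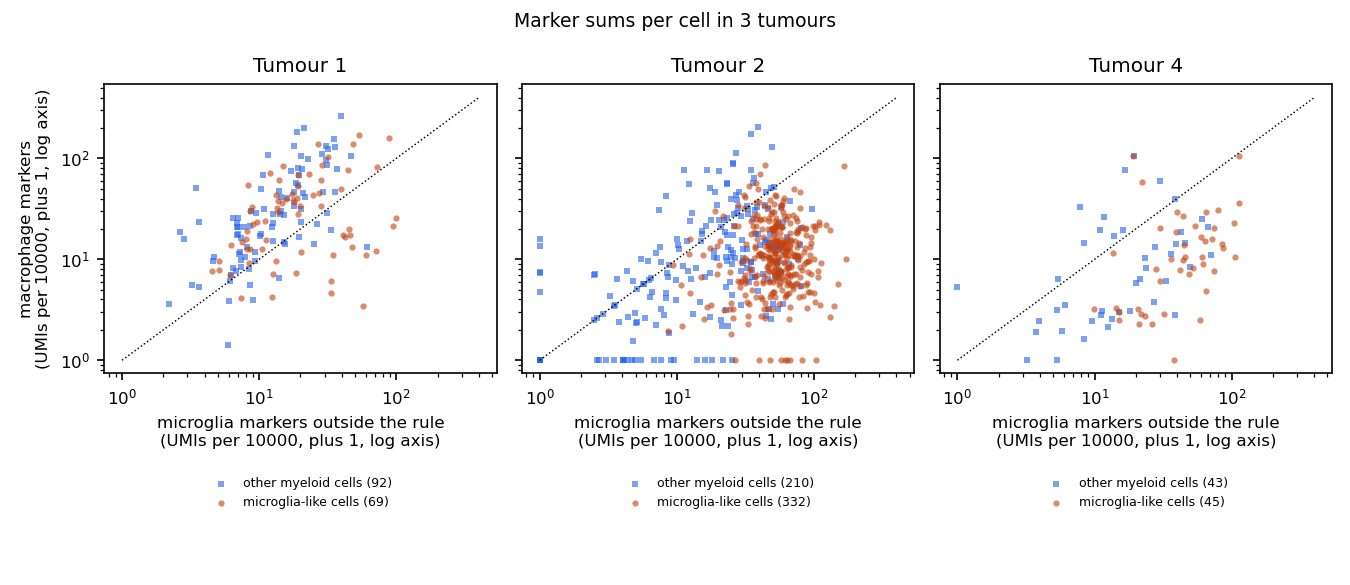
Sum of the microglia markers outside the rule (x axis) against the sum of macrophage markers (y axis), both in UMIs per 10000 UMIs plus 1 on log axes, with 1 point per cell and 1 panel per tumour. Circles are microglia-like cells, squares other myeloid cells, and the dotted line marks equal sums; 320 of 332 circles lie below the line in tumour 2, 43 of 45 in tumour 4 and 19 of 69 in tumour 1.

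The makeup of the 4 choosing markers differed between tumours in the same way. Tmem119, a membrane protein of microglia that other cells can also express, gave 68.1%, 31.7% and 42.6% of the marker UMIs of tumours 1, 2 and 4. In tumour 1, 27 of 69 cells carried only 1 of the 4 markers, which was Tmem119 in 25 of them. The ADP receptor P2ry12 (chromosome 3, 59216272 to 59262871, GRCm38) had a UMI in 33 of 69, 266 of 332 and 35 of 45 chosen cells. Gpr34, a lysophosphatidylserine receptor (chromosome X, 13632089 to 13640858), had one in 11, 268 and 31 cells, and Siglech, a sialic acid binding lectin (chromosome 7, 55768178 to 55778925), in 17, 237 and 12. Only 3 cells of tumour 1 and 3 of tumour 4 held all 4 markers, against 143 of tumour 2.

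The levels of these genes, which the rule fixed to be high, are given for scale only. P2ry12 stood at 45.1, 241 and 136 CPM in the microglia-like cells of tumours 1, 2 and 4 and at 7.33, 25.5 and 21.1 CPM in the other myeloid cells. The 6 score genes also differed in level: C1qa, a chain of the complement starter C1q, stood at 2687, 6305 and 4108 CPM against 1956, 3394 and 1947 CPM. The rule has a sharp edge at 3 UMIs. Members with exactly 3 UMIs numbered 23, 34 and 6, and the myeloid cells just outside, with 2 UMIs, numbered 35, 55 and 7. The median score was 110, 256 and 128 at 3 UMIs and 198, 223 and 223 at 2 UMIs, so the score inside the edge was the lower one in tumours 1 and 4. The cells inside the edge were also deeper in each tumour, with median totals of 17168, 7741.5 and 9014 UMIs against 10533, 6406 and 8646. Another 11 cells had 3 or more marker UMIs below the score, 4 in tumour 1 and 7 in tumour 2.

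Many chosen cells also held transcripts of the tumour. The 8 markers of oligodendrocyte precursor cells (OPC) or glioma, among them Pdgfra, Olig2 and Sox10, summed to 1217, 520 and 1347 CPM in the microglia-like cells of tumours 1, 2 and 4, to 1472, 919 and 1912 CPM in the other myeloid cells and to 2223, 1882 and 3002 CPM in the cells below the score. The chosen cells had the lowest sum in each tumour, and none of the 8 markers was at 0 in them. Of the chosen cells, 22 of 69, 284 of 332 and 24 of 45 had fewer than 5 OPC marker UMIs per 10000. Those with 5 or more were deeper, with median totals of 21305, 15159 and 15444 UMIs against 11585, 7764 and 8508, and their median myeloid score was 110, 104 and 127 against 279, 290 and 292. The part of depth and of tumour transcripts in the results below was not tested. Each comparison was repeated in cells with fewer than 5 OPC marker UMIs per 10000, here called OPC-low cells, a limit chosen after the values had been seen.

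**Figure D2:**
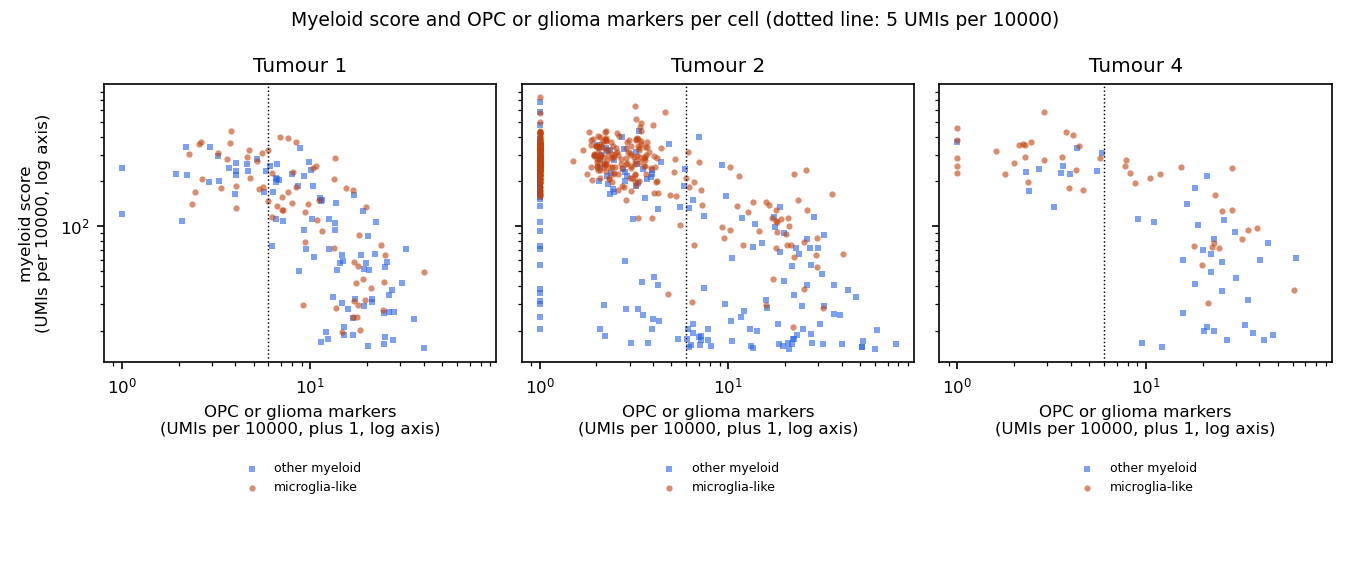
Myeloid score (y axis, UMIs per 10000, log axis) against the sum of OPC or glioma markers (x axis, UMIs per 10000 plus 1, log axis) for each myeloid cell, with 1 panel per tumour. Circles are microglia-like and squares other myeloid cells; the dotted line marks 5 UMIs per 10000, left of which lie 22 of 69, 284 of 332 and 24 of 45 circles, and the cells right of it reach lower scores.

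The transgene element WPRE, a stabilising sequence that only the constructs can supply, was present in the chosen cells as well. It stood at 506, 124 and 392 CPM in the microglia-like cells of tumours 1, 2 and 4, at 667, 336 and 637 CPM in the other myeloid cells and at 600, 410 and 819 CPM below the score. The microglia-like cells averaged 341 ± 196 CPM (SD, n = 3) against 547 ± 183 CPM in the other myeloid cells, lower in 3 of 3 tumours (exact sign-flip permutation test, two-sided, p = 0.25, the smallest that 3 pairs allow). With every cell thinned to 2000 UMIs, 44.9%, 13.6% and 37.8% of microglia-like cells had a WPRE UMI, against 66.3%, 49.0% and 77.3% of cells below the score; without thinning the shares were 89.9%, 33.7% and 62.2%. Most OPC-low cells of tumours 2 and 4 had none: 212 of 284 and 16 of 24 were at 0, as were 5 of 22 in tumour 1. Free RNA, cells caught together and transcripts taken up from tumour cells cannot be told apart here.

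Microglia-like cells made up 2.05% of kept cells in tumour 1 (exact binomial 95% interval 1.60 to 2.59), 21.4% in tumour 2 (19.4 to 23.6) and 1.03% in tumour 4 (0.751 to 1.37). The mean of 8.18% has an SD of 11.5 over 3 tumours, and without tumour 2 it is 1.54%. Tumour 2, the youngest, stood apart from the other tumours in this share. As a share of all cells with a myeloid score of 15 or more, the 3 tumours were closer, at 42.9% (35.1 to 50.9), 61.3% (57.0 to 65.4) and 51.1% (40.2 to 61.9). OPC-low members alone gave 0.655%, 18.3% and 0.548% of kept cells. These intervals cover counting error only, and the GFP gate sets the denominator.

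Which genes outside the rule differed between the microglia-like cells and the other myeloid cells was tested on counts summed per tumour and class. The sums held 1353115, 3059980 and 574421 UMIs for microglia-like cells and 1363404, 1412032 and 426814 UMIs for the others. edgeR's quasi-likelihood test with the tumour as a block called 146 of 9332 genes at an adjusted p under 0.05, 118 higher (1.26%) and 28 lower (0.3%) in microglia-like cells. The median log2 fold change over all genes tested was -0.03. In tumours 2 and 4 alone, 601 of 8404 genes were called, 334 higher (3.97%) and 267 lower (3.18%), and all 146 calls of the 3 tumours were among them with the same sign. These 2 tumours are part of the 3, so the shared calls are no independent check. The cells were sorted by markers read in the same libraries. The p-values draw on the spread over 3 tumours and on a dispersion that edgeR shares across genes, so they are no measure of that spread alone. Without tumour 2, 78 of 8489 genes were higher and 22 lower, and without tumour 4, 72 of 9798 were higher and 30 lower. The number of calls over all genes thus moved with the tumour left out, and list counts given below for these settings move with it. Without the tumour as a block no gene was called (226 at an unadjusted p under 0.05), and DESeq2 called 63.

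Most homeostatic microglia genes tested were higher in the microglia-like cells. Of 36 genes listed, 34 passed the filter on low counts; 21 were higher and 0 lower, with a median log2 fold change of 1.06, and all 34 had a positive value. Without tumour 1, 30 of 33 were higher (median 1.28), without tumour 2 13 of 31 (0.79) and without tumour 4 16 of 34 (1.03), and none was lower. The highest fold among the called genes was that of Crybb1, a crystallin gene found in microglia, at 2.34 ± 0.32 on the log2 scale (SE, adjusted p = 0.00449 by edgeR's quasi-likelihood test). It stood at 8.13, 59.8 and 29.6 CPM against 0.733, 12.04 and 11.7 CPM, so its low counts in tumour 1 (11 UMIs against 1) carry wide counting error. Without tumour 2 its log2 fold change was 2.02 and it was not called (adjusted p = 0.113 by edgeR's quasi-likelihood test). Since the lists were chosen with earlier results of these data known, the counts describe the lists and are no independent test.

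Olfml3, a secreted olfactomedin-like protein of microglia (chromosome 3, 103722222 to 103738001), stood at 121, 239 and 348 CPM in the microglia-like cells of tumours 1, 2 and 4 and at 79.2, 75.8 and 155 CPM in other myeloid cells. It was higher in 3 of 3 tumours (log2 fold change 1.27, adjusted p = 0.00807 by edgeR's quasi-likelihood test), although the lowest microglia-like value lay below the highest value of the others. Ltc4s, the synthase of leukotriene C4, stood at 44.3, 215 and 143 CPM against 12.5, 76.5 and 63.3 CPM, with a log2 fold change of 1.60 and again higher in every tumour.

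Receptors of the homeostatic set were also higher. Csf1r, the receptor on which microglial survival depends, stood at 261, 458 and 378 CPM against 180, 174 and 197 CPM, with no overlap between classes and a log2 fold change of 1.07 (adjusted p = 0.0104 by edgeR's quasi-likelihood test). Cx3cr1, the fractalkine receptor, stood at 177, 617 and 341 CPM against 160, 248 and 164 CPM. In tumour 1 the 2 classes were thus almost level for Cx3cr1, while in tumours 2 and 4 they were far apart, and its log2 fold change of 0.96 rose to 1.35 without tumour 1. Trem2, a lipid-sensing receptor, had a log2 fold change of 0.94, the ADP receptor P2ry13 1.32, and the selectin ligand Selplg 1.24. Sall1, a transcription factor often used to tell microglia from other macrophages, was not called (log2 fold change 0.75, adjusted p = 0.181 by edgeR's quasi-likelihood test; 1.10 and 0.0101 without tumour 1), and cells below the score held it at 31.5, 21.4 and 45.5 CPM, beside the 25.1, 51.0 and 60.9 CPM of the microglia-like cells.

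**Figure D3:**
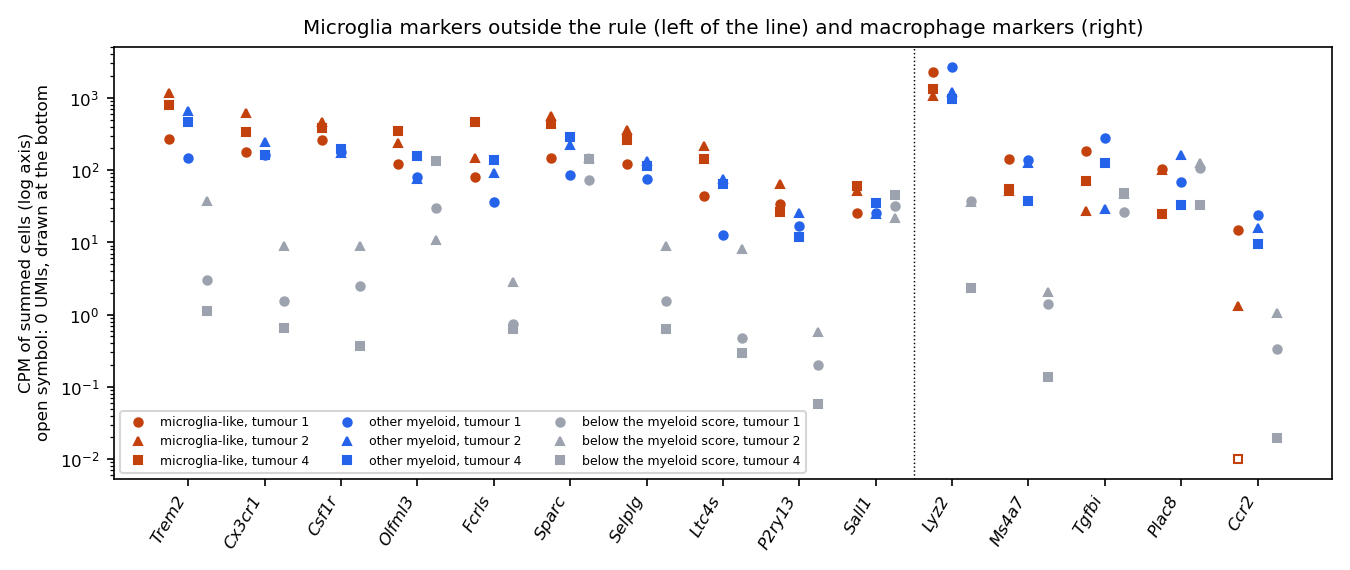
Level of 10 microglia markers outside the rule (left of the dotted line) and 5 macrophage markers (right) in CPM of summed cells on a log axis, by class (colour) and tumour (symbol); the open symbol at the bottom is a sum with 0 UMIs. The Csf1r sums of microglia-like cells lie above those of the other myeloid cells, whereas Lyz2 is highest in tumour 1 in both classes, at 2295 and 2706 CPM.

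In OPC-low cells the contrast was narrower but kept its direction for the microglia genes. There edgeR's quasi-likelihood test called 31 of 2580 genes, 13 higher (0.504%) and 18 lower (0.698%), from sums of 22, 284 and 24 microglia-like cells against 20, 128 and 11 others. Among the 13 higher genes were Cxcl13, Olfml3, Ltc4s, Fgd2, Tcn2, Sparc, Pou2f2, Ptgs1, Ctsl, Cd81, Cst3 and Ctsd. All 13 were also called in all cells with the same sign, which is 8.90% of the 146 calls there and 41.9% of the 31 here. The OPC-low cells are part of all cells, so this overlap is no independent check. Of the homeostatic list 26 genes were tested, 5 were higher, 0 lower and all 26 positive, with a median of 0.60 on the log2 scale. Of the 114 genes called higher in all cells and tested in both sets, the median log2 fold change was 0.96 in all cells and 0.57 in OPC-low cells.

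These OPC-low calls rest on small sums. Without tumour 1 there were 12 calls among 4692 genes, 4 higher (0.0853%) and 8 lower (0.171%), and 3 of the 31 calls remained among them, including Olfml3 (log2 fold change 1.62) and Cytip (-2.59). Without tumour 2 a single gene was called, Cxcl13, and without tumour 4 there were 31 calls, of which 16 were shared. In each of the 3 sets of 2 tumours, every one of the 31 genes that could be tested kept its sign. As the 31 were picked in these same tumours, the kept signs were largely fixed in advance and are no check. Runx3, lower in the called result but higher in tumour 4 (17.0 against 10.8 CPM), could not be tested without tumour 1. Cxcl13, a B cell attracting chemokine, stood at 1311, 1700 and 29.8 CPM in OPC-low microglia-like cells and at 249, 877 and 0 CPM in the others; the last value is 0 UMIs of a sum of 11 cells.

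Genes of the lysosome were also higher. All 30 listed genes were tested, 13 were higher and 0 lower, and the median log2 fold change was 0.64. Leaving out tumours 1, 2 and 4 in turn gave 18, 11 and 5 higher. Every score gene of the rule also stood higher in the microglia-like cells of each tumour. The ratios of tumours 1, 2 and 4 were 1.28, 1.84 and 2.16 for C1qb and 1.31, 1.52 and 1.62 for Tyrobp. The part of this general myeloid difference in the lysosome values was not tested. The aspartic protease Ctsd stood at 2067, 4320 and 6622 CPM against 1110, 2724 and 2983 CPM, a log2 difference of 1.01 ± 0.12 (SE, adjusted p = 0.00178 by edgeR's quasi-likelihood test). The cysteine protease Ctsl stood at 238, 374 and 303 CPM against 121, 186 and 148 CPM, with no overlap and a log2 fold change of 1.12. Progranulin (Grn, 1.06) and legumain (Lgmn, 1.01) were also higher. In OPC-low cells 3 of 25 were called higher, Ctsl and Ctsd among them, and 1 lower, Gpnmb.

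Phagocytic and Fc receptors followed the same pattern in all cells, and the part of the general myeloid difference in them was not tested either. Of 20 tested, 9 were higher and 0 lower (11, 6 and 4 higher without tumours 1, 2 and 4 in turn), with a median of 0.69 on the log2 scale, among them the Fc gamma receptors Fcgr1, Fcgr2b, Fcgr3 and Fcgr4 and the apoptotic cell receptor Mertk. Fcgr3 stood at 328, 426 and 632 CPM against 213, 225 and 295 CPM, which did not overlap. None of the 16 tested in OPC-low cells was called, and Fcgr3 had a log2 fold change of 0.36 there (adjusted p = 0.409 by edgeR's quasi-likelihood test). The complement list gave 2 of 11 higher, among them the integrin chain Itgb2 (1.12), and 0 of 6 in OPC-low cells. Itgam, the partner chain of Itgb2, had a log2 fold change of 1.55, but 2 entries share its symbol and its UMIs may be split between them.

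Disease-associated microglia genes split. Of 26 tested, 8 were higher and 0 lower (median 0.40); leaving out tumours 1, 2 and 4 in turn gave 9, 11 and 5 higher. The lysosomal proteases Ctsb, Ctsd, Ctsl and Ctsz were among the 8, and Cst7, a protease inhibitor induced in activated microglia, had a log2 fold change of 1.48. Cst7 stood at 137, 326 and 1220 CPM against 16.9, 222 and 515 CPM, and in OPC-low cells its log2 fold change was 0.66 (adjusted p = 0.441). Not called in this list were Apoe, the main brain apolipoprotein (log2 fold change 0.35), and Lpl, lipoprotein lipase (0.03). Gpnmb, a glycoprotein of lipid-laden macrophages, was not called in all cells (-0.44) and was lower in OPC-low cells (-1.19, adjusted p = 0.0233 by edgeR's quasi-likelihood test), at 151, 90.7 and 145 CPM against 393, 203 and 291 CPM. These last values did not overlap.

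Antigen presentation through MHC class II went the other way in OPC-low cells. Of 6 genes tested there, 4 were lower and 0 higher, with a median of -1.15 on the log2 scale: the chains H2-Aa, H2-Ab1 and H2-Eb1 and the invariant chain Cd74. H2-Ab1 (chromosome 17, 34257689 to 34269419) stood at 965, 654 and 1464 CPM in the microglia-like cells of tumours 1, 2 and 4 against 4391, 2376 and 1683 CPM, a log2 fold change of -1.47 (adjusted p = 0.0244 by edgeR's quasi-likelihood test). The 4 markers of T and NK cells found in the tables summed to 14.2 CPM in OPC-low microglia-like cells of tumour 2 and 297 CPM in the other OPC-low cells there, and to 0 CPM in both in tumours 1 and 4; their part was not tested. The H2-Ab1 difference was wide in tumours 1 and 2 and narrow in tumour 4, where H2-Aa stood at 1442 against 1456 CPM. In all cells none of 8 class II genes was called, and the median was -0.20. Without tumour 1, H2-Aa and H2-Eb1 were lower in all cells (log2 fold changes of -0.70 and -0.79, adjusted p = 0.0326 and 0.0114), while H2-Ob was higher and no class II gene was called in OPC-low cells (7 tested, median -0.80).

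Macrophage and monocyte genes were not called in all cells. Of 33 listed, 20 were tested, with a median of -0.33; without tumour 1, 5 of 17 were lower, namely Itga4, S100a6, S100a11, Arg1 and Ahnak. Without tumour 2 the direction turned, with a median of 0.13, 12 of 20 positive, 1 higher and 0 lower. In OPC-low cells 1 of 9 was lower, Lyz2 (log2 fold change -0.71, adjusted p = 0.0389 by edgeR's quasi-likelihood test), at 3932, 1246 and 2098 CPM against 8893, 1907 and 2567 CPM. The 9 genes had a median of -0.74. The 33 genes summed to 4975, 1903 and 3835 CPM in microglia-like cells. Within the list Lyz2 was high, while some markers of other macrophage types were low. Mrc1, of border macrophages, stood at 2.22, 0.980 and 1.74 CPM, and Cd163 and Lyve1 had 0 UMIs in all 3 tumours. Low Mrc1 was not particular to these cells. Without thinning it was read in 4.35%, 0.904% and 2.22% of them and in 1.09%, 1.43% and 0% of other myeloid cells. The monocyte receptor Ccr2 stood at 14.8, 1.31 and 0 CPM against 24.2, 15.6 and 9.37 CPM. The 5 neutrophil markers summed to 40.6, 89.2 and 41.8 CPM against 24.9, 51.0 and 21.1 CPM, nearly all from Csf3r, the 1 tested member, which was higher (0.94), while S100a8 and S100a9 had 0 UMIs in microglia-like cells.

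**Figure D4:**
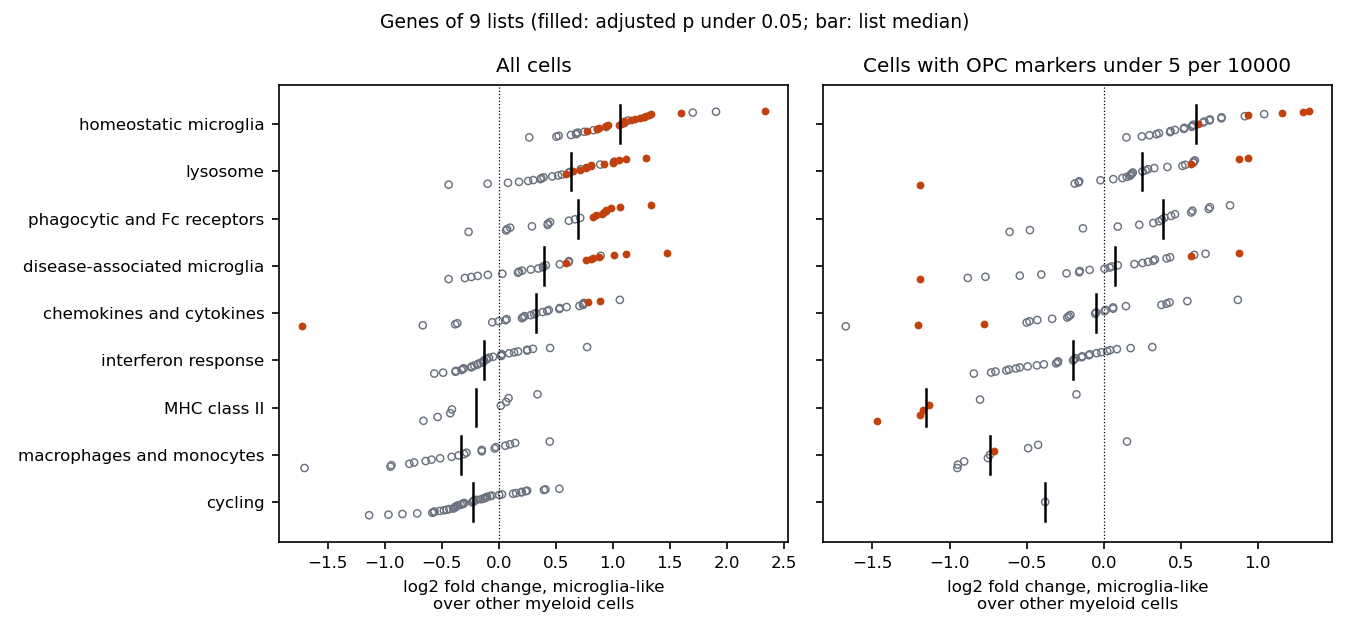
Log2 fold change of microglia-like over other myeloid cells (x axis) for each tested gene of 9 lists, in all cells (left) and in OPC-low cells (right); filled points have an adjusted p under 0.05 by edgeR's quasi-likelihood test and bars are list medians. Homeostatic genes have a median of 1.06 in all cells and 0.60 in OPC-low cells, and MHC class II genes -0.20 and -1.15.

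Among chemokines and cytokines, 27 genes were tested, 2 were higher and 1 lower (median 0.33), and without tumour 1 there were 10 higher and 4 lower among 26 (6 and 1 without tumour 2, 1 and 1 without tumour 4). Ccl3, a chemokine that attracts monocytes and T cells, stood at 716, 1354 and 1226 CPM against 585, 618 and 647 CPM, did not overlap and had a log2 fold change of 0.89 (adjusted p = 0.0170 by edgeR's quasi-likelihood test). Tnf had a log2 fold change of 0.78. Cxcl9, an interferon-gamma induced chemokine, was lower (-1.73) at 18.5, 8.82 and 26.1 CPM against 109, 29.7 and 32.8 CPM. In OPC-low cells the neutrophil attracting chemokines Cxcl1 (-1.21) and Cxcl2 (-0.78) were lower, and Ccl3 and Tnf were not called. Of the interferon response list no gene was called in either set, 31 tested in all cells and 27 in OPC-low cells, with medians of -0.13 and -0.20, but 4 of 31 were lower in all cells without tumour 1 (Ifit2, Ifit3, Irf1 and Gbp2) and 1 was higher without tumour 2. Iigp1, an interferon-inducible GTPase outside the list and named after its values were seen, was lower in OPC-low cells (-1.50, adjusted p = 0.0233 by edgeR's quasi-likelihood test).

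Smaller groups gave few calls, all in all cells. Purinergic and chemotaxis receptors had 3 of 16 higher, Cx3cr1, P2ry6 and P2ry13. Toll-like receptor and inflammasome genes had 3 of 17 higher, the receptor accessory proteins Ly86 and Unc93b1 and the inflammasome adaptor Pycard. Myeloid transcription factors had 2 of 25 higher: Spi1, which encodes the lineage factor PU.1 (0.74), and Mef2c (0.78). The TGF-beta list had 1 of 13, Nrros (1.09), which anchors latent TGF-beta on microglia. Among receptors for colony stimulating factors Csf1r and Csf3r (0.94) were higher, 2 of 6, and among checkpoint genes Vsir (1.10) and Sirpa (0.85), 2 of 14. The cholesterol and lipid list had 2 of 22 lower, the lipid transfer protein Pltp (-1.30) and Insig1 (-0.99), a sterol sensor that restrains cholesterol synthesis; without tumour 2 the called direction turned, with 2 of 19 higher and 0 lower. MHC class I (15 tested), immediate early (27), glycolysis (21) and cycling genes (44) had 0 called, with medians of -0.04, -0.08, 0.39 and -0.23. Without tumour 1 more were called in all cells: 6 of 15 purinergic and chemotaxis receptors and 6 of 25 transcription factors were higher, as were 3 of 22 glycolysis and hypoxia genes with 2 lower. Without tumour 2, 1 of 14 of these receptors and 0 of 25 transcription factors were higher. In OPC-low cells none of the genes of these 11 groups was called, all 3 tumours included.

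Outside the lists, the largest called folds were those of Gpr84, a receptor for medium-chain fatty acids that activated microglia express, and Fam167b. Gpr84 stood at 42.9, 192 and 120 CPM against 16.1, 43.9 and 51.5 CPM, giving 1.83 ± 0.22 on the log2 scale (SE, adjusted p = 0.00236 by edgeR's quasi-likelihood test), and at 1.34 in OPC-low cells (adjusted p = 0.0603). Tcn2, the carrier of vitamin B12, and Ptgs1, the cyclooxygenase COX-1, were called in both sets of cells, with log2 fold changes of 1.24 and 1.03 in OPC-low cells. Cryba4 (1.56), Capn3 (1.54), Spint1 (1.44) and Slc7a7 (1.43) were called in all cells only, which is no test of a difference between the sets. Without tumour 2, Fam167b, Cryba4, Spint1 and Slc7a7 were not called (adjusted p = 0.207, 0.663, 0.0700 and 0.314 by edgeR's quasi-likelihood test), while Gpr84, Tcn2, Capn3 and Ptgs1 were. DESeq2 did not call Fam167b, Cryba4, Capn3, Spint1, Slc7a7 or Cst7, but called Gpr84, Tcn2 and Ptgs1.

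The genes named for their negative values include markers of other cell types. Loxl2, a collagen cross-linking enzyme, stood at -2.65 ± 0.30 on the log2 scale (SE, adjusted p = 0.00178 by edgeR's quasi-likelihood test) at 1.48, 13.1 and 6.96 CPM against 5.13, 108 and 25.8 CPM. Cldn5, a tight junction protein of brain endothelium, had -2.28 at 7.39, 37.9 and 0 CPM against 22.7, 192 and 58.6 CPM. The 4 endothelial markers summed to 31.0, 85.3 and 13.9 CPM in microglia-like cells, 36.7, 259 and 100.7 CPM in other myeloid cells and 6.35, 65.6 and 3.603 CPM below the score, and their part in these values was not tested. Igfbp2 (-2.39), Ctla2a (-2.28), Nmrk1 (-2.20), Dlg1 (-1.78), Egr4 (-1.64), Gfod2 (-1.62), Pola2 (-1.61), Slitrk2 (-1.48) and the transcript C730034F03Rik (-1.84) completed the 12. Several rested on tumour 2 or on cycling cells. Without tumour 2, Nmrk1 stood at -0.25, Dlg1 at -0.53, Gfod2 at -1.14, Egr4 at -1.12 and Igfbp2 at -1.70, none of them called. Without cycling cells Nmrk1 stood at -0.42, Dlg1 at -0.41, Gfod2 at -0.37 and C730034F03Rik at -0.43, and these as well as Pola2, Slitrk2 and Cxcl9 were not called. Without tumour 4, Slitrk2 was not called. Loxl2 was not tested without tumour 2 or without cycling cells, as it did not pass the filter on low counts there. Its counts were 2 against 7 UMIs in tumour 1 and 4 against 11 in tumour 4. Nmrk1 differed little in tumour 1, at 17.7 against 20.5 CPM, and widely in tumour 2, at 32.03 against 322 CPM. Cells below the score held Slitrk2 at 30.3, 21.9 and 32.5 CPM, above the 11.1, 8.17 and 3.48 CPM of microglia-like cells. None of these 12, Cxcl9 included, passed the filter on low counts in OPC-low cells.

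Cycling was called at 5 or more UMIs of 53 cycle genes after thinning each cell to 2000 UMIs. In tumour 1 it held for 17 of 69 microglia-like cells (24.6%, exact 95% interval 15.1 to 36.5). Tumour 2 had 7 of 332 (2.11%, 0.852 to 4.30), and 4 of 45 were counted in tumour 4 (8.89%, 2.48 to 21.2). Other myeloid cells reached 27.2%, 11.4% and 11.6%, and cells below the score 37.1%, 15.8% and 26.9%. Microglia-like cells averaged 11.9% ± 11.6 and other myeloid cells 16.7% ± 9.03 (SD, n = 3), lower in 3 of 3 tumours (exact sign-flip permutation test, two-sided, p = 0.25, the smallest possible). The direction was not stable: at 3 UMIs microglia-like cells were at 44.9%, 4.82% and 22.2% against 44.6%, 16.7% and 18.6%, higher in tumours 1 and 4. Among OPC-low cells 3 of 22, 3 of 284 and 1 of 24 microglia-like cells were called cycling, against 0 of 20, 6 of 128 and 0 of 11 others. Near the limit, with 2 to 4 UMIs, lay 29, 30 and 13 microglia-like cells.

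Between the tumours, microglia-like cells differed in many genes. Of 1546 genes with at least 100 CPM in 1 tumour, 129 differed at least 4-fold between the highest and lowest tumour with 10 CPM added (8.34%). The number was 94 of 1423 (6.61%) in OPC-low cells and 84 of 1406 (5.97%) without tumour 1, but only 37 of 1435 without tumour 2 and 79 of 1441 without tumour 4. Part of this set also differed in the tumours around the cells. Apod, a secreted apolipoprotein, stood at 7.39, 660 and 19.1 CPM in microglia-like cells and at 5.22, 3886 and 93.1 CPM below the score, and in OPC-low members of tumour 2 it was 407 CPM. Xist, expressed from the inactive X chromosome of female cells, stood at 2298 CPM in tumour 1 and at 0.654 and 0 CPM in the others, and at 2246, 0.868 and 0.294 CPM below the score. Meg3, an imprinted non-coding RNA, stood at 413 CPM in tumour 4 and 843 CPM below the score there.

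Other genes are given in OPC-low members, where Cst7 stood at 353 (exact Poisson 95% interval 284 to 433), 383 (358 to 409) and 1825 CPM (1657 to 2006) in tumours 1, 2 and 4. The matrix protein Fn1 stood at 147 (104 to 202), 27.4 (21.0 to 35.2) and 485 CPM (400 to 583), and osteopontin, Spp1, at 1776, 431 and 2349 CPM. The cystine transporter Slc7a11 (221, 147 and 1145 CPM), the chemokine Ccl5 (512, 279 and 1149 CPM) and the microglial receptor Fcrls (167, 169 and 728 CPM) were also highest in tumour 4. Tumour 1 had the highest Acp5, an acid phosphatase (240, 3.54 and 17.0 CPM), and the highest Cxcl1 (500, 107 and 38.3 CPM). Tumour 2 had the highest Cst3, the protease inhibitor cystatin C (4125, 15271 and 4868 CPM), and the highest level of a transcript named Gm26870 (0, 606 and 0 CPM).

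**Figure D5:**
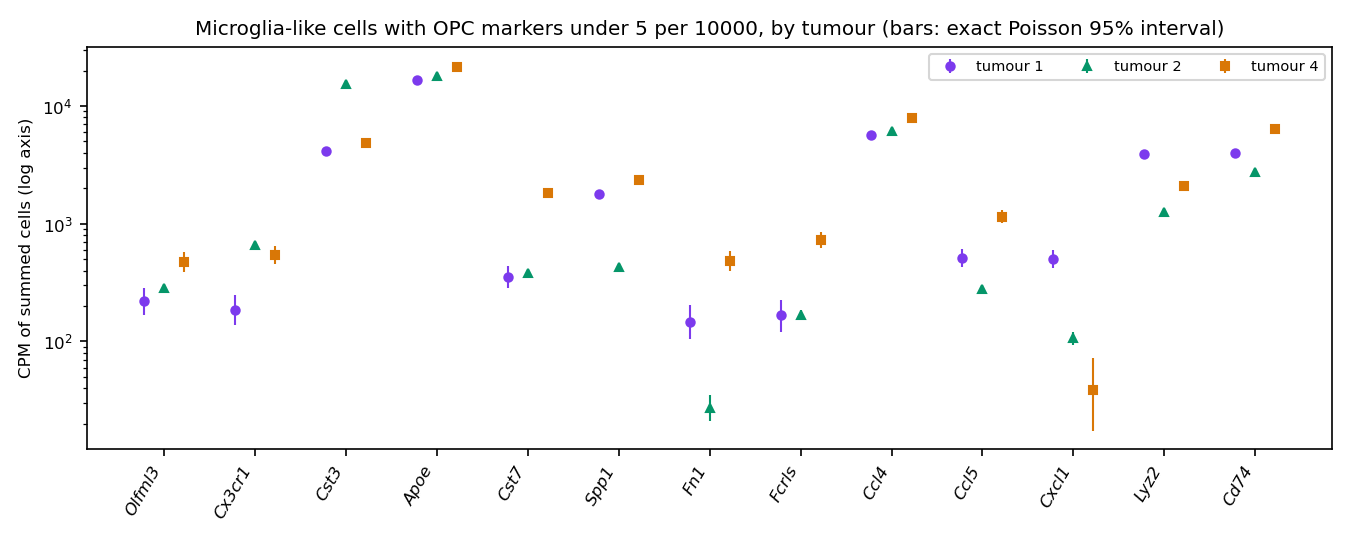
Level of 13 genes in OPC-low microglia-like cells of each tumour, in CPM of the summed cells on a log axis; bars are exact Poisson 95% intervals, which cover counting error only. Cst7 and Fn1 are highest in tumour 4 (1825 and 485 CPM), Cst3 in tumour 2 (15271 CPM) and Cxcl1 and Lyz2 in tumour 1 (500 and 3932 CPM).

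Microglia-like cells of 1 tumour also differed among themselves. After thinning to 2500 UMIs, the sum of 10 MHC class II genes had a median of 5 among the cells of tumour 2, a 10th percentile of 1 and a 90th percentile of 23.9, and 27 of 332 cells had none. Tumour 1 had a median of 7 and a 90th percentile of 68.2, and tumour 4 had 7 and 53.6. Disease-associated genes were read in every microglia-like and every other myeloid cell, with medians of 40, 70.5 and 86 UMIs against 29.5, 54 and 37. This list holds widely read genes, so a UMI in every cell marks no state. Apoe, for 1, was read without thinning in 92.3%, 99.1% and 78.0% of cells below the score. The microglia markers outside the rule had medians of 4, 13 and 12 UMIs in tumours 1, 2 and 4, and only 2 of 332 cells in tumour 2 and 0 of 45 in tumour 4 had none. Other myeloid cells reached medians of 3, 5 and 3 UMIs for the same markers.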

How the data were processed

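For each tumour, raw counts deposited by the authors give whole UMIs of 27999 gene entries in every barcode. Per the submitters' processing notes, STAR 2.5.1, Cell Ranger 1.3.0 and the build mm10 were used; how barcodes were kept before deposit is not stated there. A normalised table of the authors was not used. The members, the 33 gene lists (of 491 genes 486 were matched; Clec7a, Cebpd and Trac were not found under these symbols, and Itgam and Apoc2 each share a symbol with a second entry, as 121 symbols do) and the tests were chosen with earlier results of these data known. The tumour number in the labels is the replicate.

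Counts were summed per tumour and class and tested with edgeR 4.0.16 (filterByExpr, TMM, glmQLFit, tumour as block, Benjamini-Hochberg), leaving out the 10 rule genes, after the script had been tested on simulated data. Both sums of a tumour come from 1 animal, and their deviations correlated with r = 0.650, 0.727 and 0.423. Genes named for the size of their fold in all cells are the 12 largest called folds each way, list members included. They have the same direction in 3 tumours and at least 20 CPM in the higher class. Between tumours, genes named outside the lists come from the 8 genes per tumour with the highest ratio to the next tumour. Positions come from GENCODE for GRCm38. Median UMIs per microglia-like cell were 15325, 8077 and 10328, against 12013, 5765.5 and 8646 per other myeloid cell. As the rule counts raw marker UMIs, a deeper cell passes it more easily, and shallow microglia may lie among the other myeloid cells. Scrublet in scanpy 1.11.5 called 0, 7 and 0 cells, under 0.5%, which counts as a failed run, and no doublet was removed. Barcodes shared between tumours numbered 6, 20 and 11, and none was microglia-like in both. Alternatives included DESeq2 1.42.0, other marker limits, thinning and leaving out tumours. Some genes are not reported here.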

Additional observations from a re-analysis of the deposited data

How the results depend on the processing

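Against 146 called genes and 57 called list genes, edgeR gave 164 and 61 with RLE factors, 451 and 110 with no filter, 300 and 85 at 2 marker UMIs, 406 and 99 at 5, 1879 and 206 at 3 per 10000 UMIs, 59 and 32 at a score of 30, 400 and 100 against cells with 0 marker UMIs, 100 and 37 after thinning to 2500 UMIs, 86 and 32 without cycling cells, 31 and 15 in OPC-low cells, and DESeq2 63 and 33. The 57 list genes were 54 higher and 3 lower. This balance moved to 20 and 12 at a score of 30, 171 and 35 at 3 per 10000 UMIs, 29 and 8 after thinning, and 7 and 8 in OPC-low cells. The other settings of this row kept mostly higher list genes, such as 96 and 14 with no filter. All called genes were 1005 higher and 874 lower at 3 per 10000 UMIs, and 58 and 42 after thinning. Without the replicate block, so without pairing the sums of a tumour, both counts were 0 (226 genes at an unadjusted p under 0.05). Leaving out 1 tumour gave 100 to 601 genes and 37 to 114 list genes, and in OPC-low cells 1 to 31 (12 without tumour 1) and 0 to 17 (4). The neural marker limit left no cell in tumour 2 and gave 32 and 22 from tumours 1 and 4, with 7 list genes higher and 15 lower. The sign of Capn3 turned there (-0.30), and that of Pola2 (0.0056) in OPC-low cells without tumour 1. Among other values of the 24 named genes, 231 kept direction and call and 124 kept direction but lost the call. A named gene that failed the filter on low counts in a setting has no value there and is not counted. The cause was not tested.

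Shares in tumours 1, 2 and 4 were 0.655%, 18.3% and 0.548% for OPC-low members; other limits moved tumour 1 to 1.16% (3 per 10000), 0.982% (5 UMIs) and 3.09% (2 UMIs), and tumour 2 to 24.8% (stricter cell filter), 16.3% (5 UMIs) and 25% (2 UMIs). Leaving out 1 tumour gave a mean share of 1.54% to 11.8%, 37 to 84 genes 4-fold apart, a cycling share of 5.50% to 16.8% and WPRE at 258 to 449 CPM. Cycling was 24.0% at 3 UMIs and 51.2% without thinning. The small sums of tumour 4 and of OPC-low cells limit the depth.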
